A study of Homo sapiens with 8 samples.

Results

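The genes of heparan sulfate synthesis and editing were examined in RNA sequencing data of A375 cells, an established line of human metastatic melanoma. They were 10 of the 60710 genes in the count table, taken by symbol, and they cover the steps from chain growth to the removal of sulfate at the cell surface. EXT1 and EXT2 polymerize the chain. NDST1 and NDST2 remove acetyl groups from glucosamine and add sulfate in their place. GLCE turns glucuronic acid into iduronic acid, and HS2ST1 sulfates that sugar at the 2-O position. HS6ST1 and HS6ST2 sulfate glucosamine at the 6-O position, and SULF1 and SULF2 remove this 6-O-sulfate again. In 4 independent experiments, parental A375 cells received human recombinant TNF at 50 ng/mL for 24 hours or stayed untreated (NT), which gave 4 libraries of polyadenylated RNA per group. Both groups came from the same unmodified line, grown in DMEM with fetal bovine serum, so all values describe 1 tumor line in culture.

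Heparan sulfate is a long, unbranched sugar chain attached to core proteins such as syndecans and glypicans. Its sulfate groups lie in short stretches, and their pattern sets which growth factors, chemokines and matrix proteins the chain binds. The synthetic enzymes act in the Golgi in an ordered way, since later sulfation depends on earlier N-sulfation, whereas the sulfatases act outside the cell on finished chains. Only RNA was measured here, not enzyme activity or the chains.

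The treatment was visible in genes known to respond to NF-kB, the transcription factor activated by the TNF receptor. All 6 genes of this check rose. ICAM1, an adhesion molecule gene, went from 40.4 ± 4.53 CPM (library-size-normalized read count; SD, n = 4) to 569 ± 45.8 CPM. NFKBIA, the NF-kB inhibitor gene, had a log2 fold change of 3.03, TNFAIP3, a brake on the same pathway, of 3.56 and CXCL8, a chemokine gene, of 7.90. Library totals ran from 30989787 to 44373296 counts. NT replicates 2 and 4 and TNF replicate 4 had more ribosomal, 7SK and 7SL RNA, counted together. These RNAs made up 0.0134% to 0.0139% of their counts, against 0.00253% to 0.00428% in the other libraries. Of 8 melanoma and melanocyte markers, 2 fell and 4 did not pass. S100B went from 17.3 to 3.05 CPM (log2 fold change -2.50, adjusted p = 6.77e-06 from edgeR) and PRAME from 142 to 119 CPM (adjusted p = 0.0215). SOX10, at 1020 CPM in NT and 1180 CPM in TNF-treated cells, MITF, at 21 and 22 CPM, and the pigment genes MLANA and PMEL, below 1 CPM, did not pass, and TYR and DCT had too few counts. The summed level of these 8 markers, most of it SOX10, was 1130 to 1270 CPM in NT and 1250 to 1440 CPM in TNF libraries. Of 8 markers of other cell types, KRT5, DCN and PECAM1 rose, KRT14 fell, LUM did not pass, and PTPRC, CD3E and CDH5 had too few counts, though none was at 0 in all libraries of a group. Their summed level was 20 to 23.5 CPM in NT and 12 to 18.6 CPM in TNF libraries. KRT14 made up most of it, averaging 18.3 CPM in NT and 8.39 CPM in TNF. KRT5, DCN and PECAM1 averaged below 1 CPM in NT and 1.61, 1.48 and 2.3 CPM in TNF. The part of these markers in the results was not tested. As in any bulk sample, fewer cells expressing a gene and less RNA per cell cannot be told apart.

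Each enzyme gene had enough counts to be tested, and 7 of the 10 changed with TNF. Expression was higher for EXT1, EXT2, NDST1 and SULF1 and lower for GLCE, HS6ST2 and SULF2 when 16186 genes were tested with edgeR (quasi-likelihood test, threshold of 0.05 on the adjusted p). NDST2, HS2ST1 and HS6ST1 did not pass. Among all genes tested, 14.5% were called higher and 9.9% lower, 24.4% together. With the experiment date as a block in the fit, the calls over all genes went from 2345 higher and 1603 lower to 3451 and 2946, and those among the enzymes to 5 and 4. The 4 NT and 4 TNF libraries did not overlap for 8 of the 10 enzyme genes, NDST2 included, and for 27.3% of all genes tested. With upper-quartile scaling the split over all genes was 2045 higher and 2196 lower, and 3 of the enzyme genes were then higher and 4 lower. The median log2 fold change was 0.05 for the 10 genes and -0.0035 for all genes. SULF1 and SULF2 moved by more than 1 on the log2 scale, in opposite directions, while the other calls were changes of 1.5-fold or less. A log2 fold change this large with a call was found in 8.01% of all genes.

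**Figure D1:**
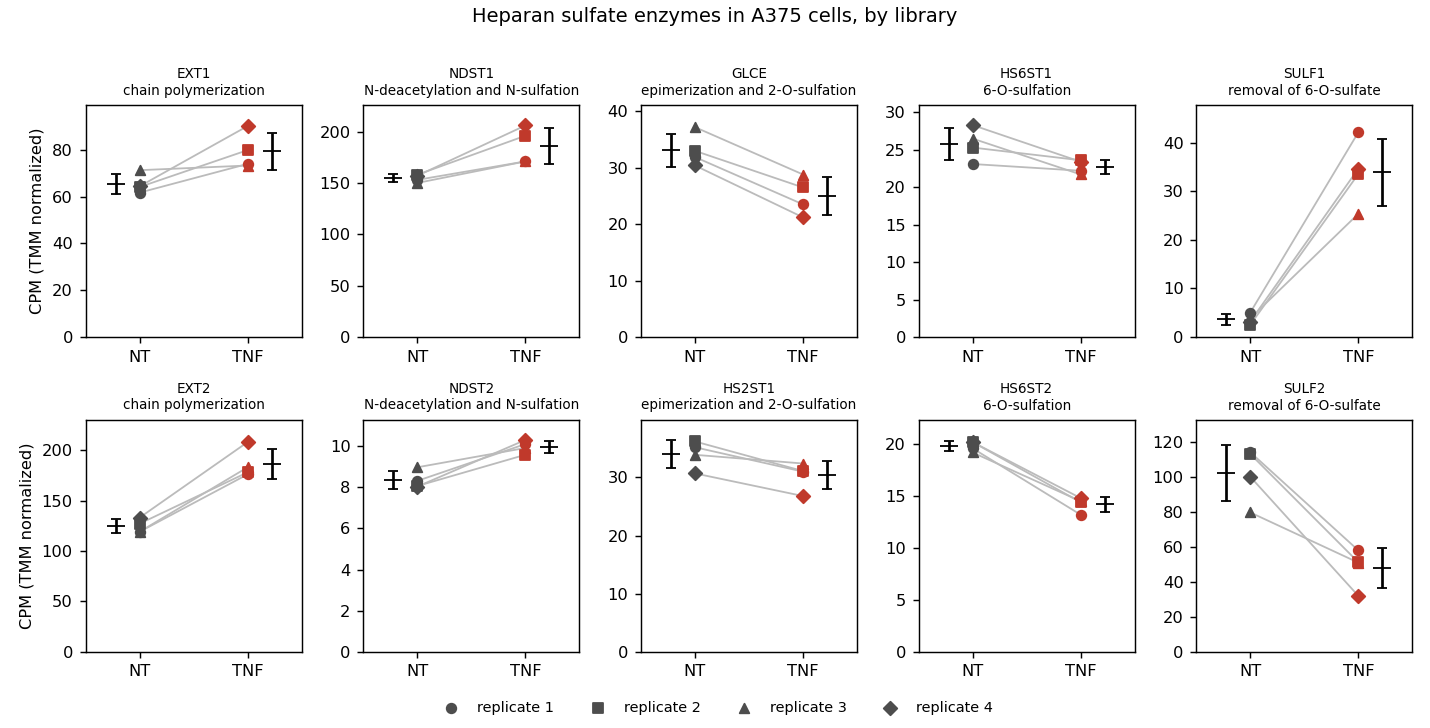
CPM (vertical axis, linear and starting at 0) of each of the 10 enzyme genes in the 4 NT and 4 TNF libraries, with grey lines joining libraries of the same experiment and black bars giving the mean and SD of each group. SULF1 lies between 2.49 and 5.02 CPM in NT and between 25.4 and 42.2 CPM in TNF libraries, and SULF2 falls in each of the 4 experiments.

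Promoter windows from RefSeq (GRCh38.p14, 250 bases before to 50 after a start site) were used for 8 of the 10 genes, in 14 windows. The 3 printed here belong to genes that changed and are anchored at the start site of the canonical transcript, so that the DNA beside 1 rise and 2 falls can be read. EXT2 lies at chr11:44095428-44095727 on the plus strand, GLCE at chr15:69160385-69160684 on the plus strand, and SULF2 at chr20:47785432-47785731 on the minus strand. Capitals mark matches to the motifs searched on both strands.
EXT2: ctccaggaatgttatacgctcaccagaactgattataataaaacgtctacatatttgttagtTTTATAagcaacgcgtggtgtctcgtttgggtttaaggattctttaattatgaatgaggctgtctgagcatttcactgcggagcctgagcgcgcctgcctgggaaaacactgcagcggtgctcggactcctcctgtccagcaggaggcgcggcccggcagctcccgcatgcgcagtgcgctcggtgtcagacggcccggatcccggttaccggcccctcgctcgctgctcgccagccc
GLCE: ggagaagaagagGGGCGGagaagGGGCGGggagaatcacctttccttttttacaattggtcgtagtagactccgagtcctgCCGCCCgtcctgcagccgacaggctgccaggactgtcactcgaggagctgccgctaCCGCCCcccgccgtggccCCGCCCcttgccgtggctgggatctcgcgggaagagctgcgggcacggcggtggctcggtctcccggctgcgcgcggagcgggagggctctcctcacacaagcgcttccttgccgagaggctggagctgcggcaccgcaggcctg
SULF2: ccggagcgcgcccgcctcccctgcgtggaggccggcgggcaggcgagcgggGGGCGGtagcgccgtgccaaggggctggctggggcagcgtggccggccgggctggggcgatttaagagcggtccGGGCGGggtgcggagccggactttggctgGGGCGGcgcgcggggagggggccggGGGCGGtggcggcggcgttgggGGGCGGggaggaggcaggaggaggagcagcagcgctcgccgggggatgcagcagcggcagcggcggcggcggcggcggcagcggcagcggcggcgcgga
The motifs were the GC box GGGCGG, the E-box CACGTG, the M-box core TCATGTG, the AP-1 site TGANTCA, the TATA box TATAAA and the kB site bound by NF-kB. The window of SULF2 held 5 GC boxes and that of GLCE also 5, and a GC box was present in 45.0% of all 35116 windows of this length. The printed window of EXT2 held 1 TATA box letter match, on the reverse strand, and no GC box. Its windows 2 and 3, 519 and 520 bases from the canonical start, held 2 GC boxes each. Among the genes not printed, the window of NDST1 held 1 GC box, that of HS6ST1 7, that of HS2ST1 4 and that of HS6ST2 0. The windows of NDST2 held 4 and 1. None of the 14 windows held a kB site or an M-box core, which 5.91% and 2.92% of all windows held. The NDST1 window held 2 AP-1 sites and window 2 of SULF2 held 1 E-box, motifs found in 7.71% and 7.26% of all windows. The promoters of EXT1 and SULF1 were not searched. Windows 2 and 3 of EXT2 overlap almost wholly. The NDST1 window and window 4 of SULF2 lie 10352 and 21053 bases from the canonical start. The HS6ST2 window and window 1 of SULF2 lie 2741 and 1146 bases from it, and the remaining windows at most 615. With so few windows, neither absence nor presence of a motif was tested against these shares. These matches describe letters only.

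The chain polymerases were both higher with TNF, EXT2 more than EXT1. EXT2 was at 119, 127, 119 and 133 CPM in NT replicates 1 to 4 and at 176, 178, 183 and 208 CPM in TNF replicates 1 to 4. Each TNF library was above each NT library, with 125 ± 6.99 CPM (SD, n = 4) in NT and 186 ± 14.7 CPM in TNF, a 1.5-fold rise (95% interval 1.33 to 1.68, adjusted p = 0.000266 from edgeR). EXT1, whose product forms the polymerase complex with that of EXT2, was at 61.7, 64.1, 71.3 and 64.4 CPM in NT and at 74.0, 79.9, 73.3 and 90.2 CPM in TNF. The groups did not overlap, but the third experiment differed by only 0.0387 on the log2 scale, against 0.262 to 0.487 in the others. The rise of EXT1 was 1.21-fold (95% interval 1.07 to 1.38, adjusted p = 0.0343 from edgeR). This call was lost when NT replicate 1, NT replicate 2, NT replicate 4, TNF replicate 2 or both libraries of the fourth experiment were left out (adjusted p of 0.077 to 0.093, edgeR), and with upper-quartile scaling, library totals or no filter on low counts (0.0536 to 0.0656). Without the 3 libraries that held more ribosomal, 7SK and 7SL RNA, the log2 value was 0.19 (adjusted p = 0.182, edgeR).

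The ratio of EXT1 to EXT2 within a library does not depend on how libraries are scaled. Its log2 value averaged -0.93 ± 0.13 (SD, n = 4) in NT and -1.23 ± 0.07 in TNF, and the groups did not overlap. The difference of -0.30 had an exact two-sided permutation p of 0.0286, the smallest that 4 against 4 libraries allow, and 0.0357 after adjustment over the 5 enzyme pairs compared. Per kilobase of transcript, EXT1 made up 39% of the summed level of both in NT and 34.1% in TNF-treated cells.

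NDST1, the more abundant of the N-deacetylase and N-sulfotransferase genes here, was higher with TNF by a small amount. It was at 153, 158, 150 and 157 CPM in NT and at 171, 196, 171 and 206 CPM in TNF, so replicates 2 and 4 stood above the other TNF libraries and no TNF library reached down to NT. The means of 155 ± 3.63 CPM (SD, n = 4) and 186 ± 17.7 CPM gave a 1.2-fold rise (95% interval 1.07 to 1.35, adjusted p = 0.0275 from edgeR). The call was lost without any single NT library, 1 to 4, and without TNF replicate 2 (adjusted p of 0.0554 to 0.0823, edgeR), without the 3 libraries with more ribosomal RNA (adjusted p = 0.0781) and with no filter on low counts (adjusted p = 0.0601).

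NDST2 encodes the second enzyme of this step and was much less abundant. It was at 8.31, 8.06, 8.97 and 8.03 CPM in NT and at 10.1, 9.58, 9.91 and 10.3 CPM in TNF. All TNF libraries were above all NT libraries, yet the log2 fold change of 0.26 (standard error 0.0961) had an adjusted p of 0.08 in edgeR and did not pass. With the experiment date as a block in the fit, the adjusted p was 0.0349. NDST2 shares exon sequence on its strand with the gene AC022400.5, which had 10.88 to 55.55 expected counts, so some reads could belong to either gene. The log2 ratio of NDST1 to NDST2 was 4.204 ± 0.11 (SD, n = 4) in NT and 4.21 ± 0.14 in TNF, and the difference of 0.0068 was smaller than the spread within either group (exact permutation p = 0.9714).

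GLCE, the C5-epimerase gene of heparan sulfate, fell. It was at 31.9, 33.0, 37.2 and 30.4 CPM in NT and at 23.5, 26.5, 28.8 and 21.2 CPM in TNF, and the highest TNF library stayed below the lowest NT library. The level was 1.32-fold lower with TNF (log2 fold change -0.41, standard error 0.108, adjusted p = 0.0188 from edgeR). Leaving out NT replicate 3 (adjusted p = 0.06) or TNF replicate 1 (adjusted p = 0.0516) ended this call in edgeR. HS2ST1, the heparan sulfate 2-O-sulfotransferase gene, was at 35.2, 36.2, 33.9 and 30.7 CPM in NT and at 31, 31.1, 32.4 and 26.8 CPM in TNF. These groups overlapped, although TNF was the lower library in each of the 4 experiments. HS2ST1 had a fold of 0.893 (95% interval 0.784 to 1.02, adjusted p = 0.209 from edgeR) and did not pass, whereas with the experiment date as a block its adjusted p was 0.0448. It overlaps exon sequence of AC093155.3, which had 15.77 to 46.58 expected counts. The log2 ratio of GLCE to HS2ST1 went from -0.04 ± 0.13 (SD, n = 4) to -0.29 ± 0.10, a difference of -0.25 with no overlap between groups (exact permutation p = 0.0286, adjusted p = 0.0357 over 5 pairs).

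Of the 6-O-sulfotransferase genes, HS6ST2 fell and HS6ST1 did not pass. HS6ST2 varied little within groups, with 19.6, 20.2, 19.2 and 20.2 CPM in NT and 13.2, 14.4, 14.5 and 14.8 CPM in TNF. The gap between groups was several times the SD of 0.489 and 0.716 CPM, and the level was 1.39-fold lower with TNF (log2 fold change -0.48, standard error 0.0797, adjusted p = 0.00139 from edgeR). HS6ST1 was at 23.1, 25.3, 26.5 and 28.3 CPM in NT and at 22.2, 23.6, 21.7 and 23.4 CPM in TNF. NT replicate 1 lay within the TNF range, and the fold of 0.881 (95% interval 0.776 to 1.0) had an adjusted p of 0.144 in edgeR. HS6ST1 passed with upper-quartile scaling (adjusted p = 0.0376) and with library totals alone (adjusted p = 0.023). Within libraries, the log2 ratio of HS6ST1 to HS6ST2 was 0.38 ± 0.12 (SD, n = 4) in NT and 0.68 ± 0.07 in TNF. The difference of 0.30 had no overlap between groups (exact permutation p = 0.0286, adjusted p = 0.0357 over 5 pairs).

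**Figure D2:**
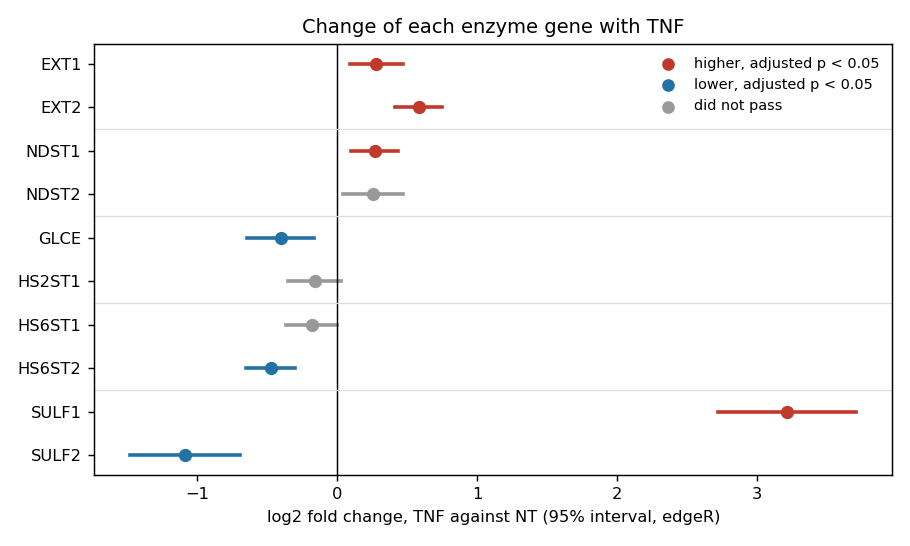
Log2 fold change of TNF against NT (horizontal axis) for each enzyme gene, with its 95% interval from edgeR, from 4 libraries per group. Grey lines separate the steps, and the interval of SULF1, 2.72 to 3.71, and that of SULF2, -1.48 to -0.69, lie on opposite sides of 0.

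SULF1 and SULF2 encode the extracellular 6-O-endosulfatases, and they had the largest changes of the 10 genes. SULF1 was at 5.02, 2.49, 3.81 and 3.17 CPM in NT and at 42.2, 33.6, 25.4 and 34.7 CPM in TNF. The lowest TNF library was thus well above the highest NT library, and the NT values rested on 91 to 235 counts per library. SULF1 rose 9.3-fold (95% interval 6.61 to 13.1, adjusted p = 4.62e-06 from edgeR), rank 129 of the 2345 genes that rose when ordered by log2 fold change. The rise within single experiments was 2.72 to 3.73 on the log2 scale.

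SULF2, the sulfatase gene that dominated in NT cells, was at 114, 113, 79.6 and 100 CPM in NT and at 57.9, 51.1, 50.9 and 31.9 CPM in TNF. The groups did not overlap, NT replicate 3 being the lowest of the NT libraries and TNF replicate 4 the lowest of all. The means of 102 ± 16.1 CPM (SD, n = 4) and 47.9 ± 11.2 CPM corresponded to a 2.12-fold lower level with TNF (log2 fold change -1.09, standard error 0.176, adjusted p = 0.00129 from edgeR), rank 334 of the 1603 genes that fell. Within experiments SULF2 differed by -0.644 in the third to -1.65 in the fourth on the log2 scale. The antisense gene AL354813.1 that overlaps its exons had at most 2.91 expected counts.

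The log2 ratio of SULF1 to SULF2 was -4.49, -5.48, -4.37 and -4.96 in NT and -0.45, -0.60, -1.003 and 0.12 in TNF. Only TNF replicate 4 had more SULF1 than SULF2 counts. The mean difference was 4.34 (exact permutation p = 0.0286, adjusted p = 0.0357 over 5 pairs), and it was 3.74 without the 3 libraries with more ribosomal RNA. Per kilobase of transcript, SULF1 made up 2.87%, 1.46%, 3.12% and 2.08% of the summed sulfatase level in NT and 32.9%, 30.7%, 25.1% and 42.3% in TNF. The summed level itself was 27.4 ± 4.22 CPM per kilobase (SD, n = 4) in NT and 18.6 ± 3.4 in TNF. NT replicate 3, at 21.6, lay below TNF replicate 1, at 22.7, so these sums overlapped. With coding length in place of transcript length, the SULF1 share was 3.5% in NT and 41.8% in TNF.

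**Figure D3:**
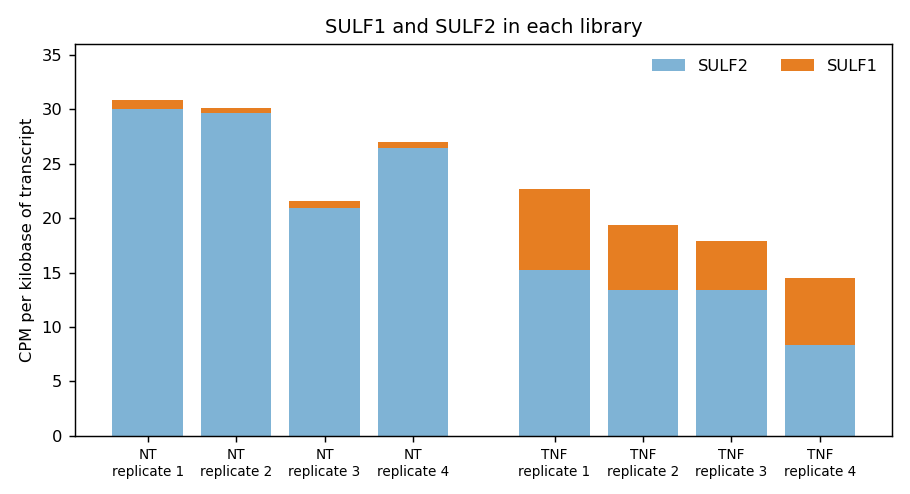
Stacked bars of SULF2 (blue) and SULF1 (orange) in CPM per kilobase of transcript (vertical axis from 0) for each of the 8 libraries. SULF1 is a thin layer in NT libraries, at most 3.12% of the bar, and 25.1% to 42.3% of the TNF bars. The TNF bars are shorter on average but overlap those of NT in height.

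The order of levels among the enzymes was read per kilobase of transcript. In NT cells it ran from SULF2 at 26.7 ± 4.22 CPM per kilobase (SD, n = 4) through NDST1 at 19.3, EXT2 at 12.4, EXT1 at 7.93, GLCE at 6.57, HS6ST1 at 6.11, HS2ST1 at 5.03, HS6ST2 at 4.74 and NDST2 at 2.22 to SULF1 at 0.64 ± 0.19. Of the neighbours in this order, GLCE and HS6ST1 overlapped between libraries, as did HS2ST1 and HS6ST2. In TNF-treated cells NDST1 at 23.2 ± 2.21 CPM per kilobase and EXT2 at 18.6 were followed by SULF2 at 12.6, EXT1 at 9.63, SULF1 at 6, HS6ST1 at 5.38, GLCE at 4.95, HS2ST1 at 4.49, HS6ST2 at 3.41 and NDST2 at 2.65 ± 0.08. Here SULF2 overlapped EXT1, SULF1 overlapped HS6ST1, HS6ST1 overlapped GLCE and GLCE overlapped HS2ST1. SULF1 thus stood last in NT and in the fifth place in TNF-treated cells. The order depends on the length used: by coding length NDST1 and EXT2 led in NT, ahead of SULF2, and SULF1 took the eighth place with TNF.

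Around these enzymes, 58 of 68 further genes of glycosaminoglycan metabolism had enough counts, and 15 rose, 9 fell and 34 did not pass. Of the 15 rises, 8 were chondroitin and dermatan sulfate genes. Among all genes tested, 14.5% were called higher and 9.9% lower, and a difference of the lists from these shares was not tested. The median log2 fold change of these 58 genes was -0.03. With the experiment date as a block, 17 were higher and 14 lower. Without both libraries of the fourth experiment, and with library totals alone, 14 were also lower. Over all genes the lower calls also increased, from 1603 to 2946 with the block, 1895 without the fourth experiment and 2514 with library totals.

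The chain begins with a linkage tetrasaccharide on the core protein, and 3 of the 7 genes of this step rose and none fell (median log2 fold change 0.16). XYLT1, a xylosyltransferase that starts the linkage, went from 18.9 ± 4.09 to 37.2 ± 4.11 CPM (SD, n = 4; adjusted p = 0.000729 from edgeR). PXYLP1, which removes phosphate from the linkage xylose, had a log2 fold change of 0.58 and B3GALT6, a linkage galactosyltransferase, of 0.24. XYLT2, B4GALT7, B3GAT3 and FAM20B did not pass. Of the other polymerization genes, EXTL1 went from 55.2 ± 5.24 to 21.5 ± 8.63 CPM (SD, n = 4; log2 fold change -1.36, adjusted p = 0.00382 from edgeR), and EXTL2 and EXTL3 did not pass.

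The remaining sulfotransferases were mostly silent or low. Of 10 genes, 6 had too few counts (NDST3, NDST4, HS3ST2, HS3ST4, HS3ST5 and HS3ST6), 2 fell and 2 did not pass. HS6ST3, the third 6-O-sulfotransferase gene, went from 2.8 ± 0.724 to 0.861 ± 0.0868 CPM (SD, n = 4; log2 fold change -1.69, adjusted p = 0.00035 from edgeR). HS3ST1, which makes the 3-O-sulfate needed for binding of antithrombin, fell by 0.80 on the log2 scale (adjusted p = 0.00653 from edgeR). HS3ST3A1 and HS3ST3B1, at -0.04 and -0.27, did not pass. Among 10 genes that supply sugar nucleotides and the sulfate donor PAPS, 2 fell, 8 did not pass and the median was -0.21. UGP2, which makes UDP-glucose, went from 86.6 ± 2.06 to 57.8 ± 5.91 CPM (SD, n = 4; adjusted p = 0.000402 from edgeR), and SLC35B2, which carries PAPS into the Golgi, fell by 0.48 on the log2 scale (adjusted p = 0.0163 from edgeR).

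Of 9 genes of heparan sulfate breakdown, 8 did not pass, including HPSE, the heparanase gene, at a log2 fold change of 0.06. ARSG, a lysosomal sulfatase gene of the same large family as SULF1, was higher, at 4.22 ± 1.27 CPM against 1.72 ± 0.0956 CPM (SD, n = 4; adjusted p = 0.00156 from edgeR). Among 10 tested core protein genes, 3 rose, 2 fell and 5 did not pass. SDC4, a syndecan gene, went from 87.5 ± 8.91 to 398 ± 14.8 CPM (SD, n = 4; log2 fold change 2.19, adjusted p = 9.48e-08 from edgeR), while SDC3, another syndecan gene, fell by 1.36 on the log2 scale (adjusted p = 0.000595). AGRN, which encodes the matrix proteoglycan agrin, rose by 1.07 on the log2 scale. The other calls, named after their values were seen, were HSPG2, the perlecan gene, at 0.92 and the glypican gene GPC1 at -0.46.

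Chondroitin and dermatan sulfate are built on the same linkage. Of their 15 tested genes 8 rose, 2 fell and 5 did not pass, with a median log2 fold change of 0.44. CHST15, which adds a second sulfate to 4-O-sulfated chondroitin, went from 0.375 ± 0.0652 to 3.89 ± 0.947 CPM (SD, n = 4; log2 fold change 3.36, adjusted p = 6.14e-06 from edgeR). CHST7, a chondroitin 6-O-sulfotransferase gene, had a log2 fold change of 1.51 and DSE, a dermatan sulfate epimerase gene, of 1.33. The genes that fell, named after their values were seen, were CSGALNACT1, which starts chondroitin chains, at -0.86 and the polymerase gene CHSY1 at -0.25.

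**Figure D4:**
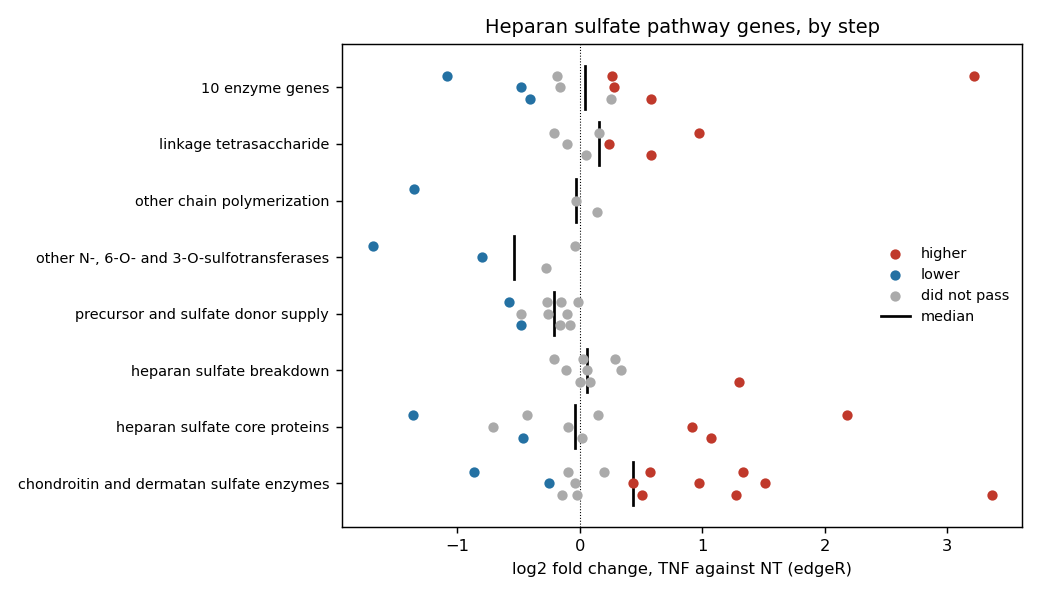
Log2 fold change of TNF against NT (horizontal axis) for each tested gene of the 10 enzymes and of the 7 other lists (rows), coloured by whether the gene was higher, lower or did not pass in edgeR, with a black line at each list's median. The medians run from -0.54 for the other sulfotransferases to 0.44 for the chondroitin and dermatan sulfate enzymes.

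In the annotation (GENCODE 44, GRCh38) all 10 are protein-coding genes. SULF1 (chromosome 8, 69466624 to 69660915, plus strand) has 23 exons in its canonical transcript and SULF2 (chromosome 20, 47656197 to 47786616, minus strand) has 21. EXT1 lies on chromosome 8 (117794490 to 118111826, minus strand), EXT2 on chromosome 11 (44095648 to 44251962, plus strand) and NDST1 on chromosome 5 (150485818 to 150558211, plus strand). NDST2 lies on chromosome 10 (73801911 to 73811798, minus strand), GLCE on chromosome 15 (69160584 to 69272217, plus strand) and HS2ST1 on chromosome 1 (86914635 to 87109982, plus strand). HS6ST1 lies on chromosome 2 (128236716 to 128318868, minus strand) and HS6ST2 on chromosome X (132626015 to 132961395, minus strand). No 2 of the enzyme genes overlap, and EXT1 and SULF1 are the only ones that share a chromosome. The values are sums over whole genes, so exons, introns and untranslated regions were not separated.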

How the data were processed

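RNA from 4 NT and 4 TNF libraries was made by the authors with a stranded polyadenylated RNA kit, aligned with bowtie2 (version not given in the sources used here) to the GRCh38 transcriptome and counted with RSEM 1.2.25. Whether counting used strand is not given either. The authors deposited expected counts for each gene, without normalization. For the 4 NT samples, the single file filed under each record holds the NT library of another date, so the series table was used, in which column names and titles match. Dates pair the libraries: same-date libraries deviated together (correlations over 16186 genes of 0.351, 0.169, 0.238 and 0.46). Within groups, no 2 libraries were alike within sampling noise.

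Expected counts were rounded (a change of 0.000138% of the total), filtered by edgeR (minimum count 10, minimum total 15), scaled by TMM and fitted in edgeR 4.0.16 under R 4.3.3 (robust quasi-likelihood test, treatment as the single term) with Benjamini-Hochberg adjustment over 16186 genes and a threshold of 0.05. Intervals are 95% and not adjusted. CPM are counts divided by TMM-scaled library sizes, and log2 CPM used a prior count of 2. Enzyme pair ratios were tested by exact two-sided permutation over 70 assignments. Levels per kilobase used canonical GENCODE 44 transcripts, which are not of the annotation release the paper names. Alternatives were DESeq2 1.42.0, limma 3.58.1 voom, other scaling, filters and thresholds, the experiment date as a block, and left-out libraries. Fits were tested on simulated data. The enzymes and lists were chosen with earlier results of these data known. By rule, values are given for the 10 enzymes, 4 NF-kB targets and, in each list, up to 3 called genes with the largest change. Some other genes of the lists, most of them not called, were named after their values were seen. The rest, among them called chondroitin and dermatan sulfate genes that rose, were counted but not named.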

Additional observations from a re-analysis of the deposited data

How the results depend on the processing

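No enzyme gene changed direction in any of 18 alternative fits. SULF1, SULF2, EXT2 and HS6ST2 kept their call in all 18, with log2 fold changes of 2.92 to 3.43, -1.19 to -0.86, 0.50 to 0.61 and -0.56 to -0.45. EXT1 lost its call in 9, NDST1 in 7 and GLCE in 2, and the cause was not tested. Over all 18 fits, lost calls or not, their log2 fold changes were 0.19 to 0.32, 0.18 to 0.31 and -0.49 to -0.33. The 4 enzyme genes called higher became 2 with no filter on low counts. They also became 2 without the 3 libraries with more ribosomal, 7SK and 7SL RNA. At an adjusted p under 0.01 they became 2, and at an absolute log2 fold change above 1 they became 1. Over all genes, the 2345 called higher became 2194, 2155, 1548 and 909 in these settings. The 3 called lower became 2 at 0.01 and 1 at that fold, against 772 and 387 of the 1603 over all genes. With the experiment date as a replicate block 5 were higher and 4 lower (3451 and 2946 over all genes, against 2345 and 1603), and the block changed no other call among the enzymes than those of NDST2 and HS2ST1. With a library left out, 2 to 4 were higher (2 without NT replicate 1, 2 or 4 or TNF replicate 2) and 2 to 3 lower. Over all genes, 1880 to 2521 were then higher and 1110 to 1896 lower. Of the other pathway genes, 15 higher and 9 lower became 7 and 3 at an absolute log2 fold change above 1, and 13 to 15 and 8 to 13 with a library left out. The lower count was 14 with library totals, with the replicate block and without the fourth experiment. The 4 enzyme pairs whose ratio differed all had the smallest possible p, 0.0286 in the permutation test. They were also 4 with a prior count of 0.5. That setting is a weak check, since it hardly moved the differences between TNF and NT (4.34 to 4.35 for SULF1 to SULF2). How many other gene pairs would separate was not tested. With fewer libraries or within pairs the permutation test cannot reach 0.05 (smallest p 0.0571 for 3 against 4 and 0.125 for 4 pairs), so only values were recomputed. The difference between TNF and NT in the log2 ratio of SULF1 to SULF2 then ranged from 3.74 to 4.51. In these, the 4 pairs kept their direction. The coding length, added after seeing the data, moved the SULF1 share to 3.5% and 41.8%. Among the 10 enzymes, counts were lowest for SULF1 in NT libraries, at 91 to 235.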
